A study of Mus musculus with 2 samples.

Results

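The regions described here are 1441 autosomal stretches of 2500 bp, called low tiles below, in which few CpGs were covered and methylation was under 30% in both *Rex1*-high and *Rex1*-low mouse embryonic stem cells (ESCs). Methylation was measured by reduced representation bisulfite sequencing (RRBS) in a single library for each state, prepared from *Rex1*-high or *Rex1*-low cells after sorting. Both came from 1 line, E14 ESCs of 129/Ola background carrying a Rex1-dGFP knockin reporter, cultured with LIF and serum on gelatin. The GFP reporter stands in for *Rex1* expression in the sort, and methylation values alone do not check that label. The autosomes were divided into tiles, and a deposited line was kept if it held at least 5 methylation calls. A CpG entered a tile when it had a kept line in both libraries, and is called a shared CpG. The methylation level of a tile is the unweighted mean over its shared CpGs. Low tiles were chosen by 3 to 9 shared CpGs, a level under 30% in each library, and no directly neighbouring tile with 40 or more shared CpGs. The levels in both libraries thus selected the tiles, and are described without a test. The low tiles made up 1.16% of the 123738 autosomal tiles that met the CpG and neighbour conditions, which are called sparse tiles. They held 8806 of the 1707425 shared CpGs, and were found among 162599 tiles with at least 3 shared CpGs on all chromosomes.

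In mammals, cytosine methylation is placed mainly at CpG dinucleotides, by de novo methyltransferases of the Dnmt3 family and by Dnmt1, which copies the pattern to the new strand after replication. Tet enzymes oxidize methylated cytosine and thereby start its removal. Most CpGs that lie far apart are methylated in differentiated cells, whereas dense clusters of CpGs, the CpG islands found at many promoters, are mostly free of methylation. *Rex1* (*Zfp42*) encodes a zinc finger protein that marks the naive state of ESCs, and its expression is heterogeneous in serum. In RRBS, DNA is cut at MspI and TaqI sites, and short fragments are sequenced after unmethylated cytosines have been converted by bisulfite. A tile is therefore seen only through the fragments that fall in it, and the number of shared CpGs counts covered CpGs rather than the CpGs of its sequence. Positions are in mm9. No genome or annotation of that build was used here, so genes, exons and CpG islands at these tiles, and their sequences, were not analysed here.

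The *Rex1*-high library held 60718476 calls and the *Rex1*-low library 61024229 calls, of which 294419 and 324860 were at the shared CpGs of low tiles. A low tile had a median of 163 calls in *Rex1*-high and 160 in *Rex1*-low. For the pooled calls of a low tile, the 95% Wilson interval extended a median of 5.98 points to either side in *Rex1*-high and 6.47 points in *Rex1*-low, taken as the mean of its upper and lower arms. Such intervals cover counting error only, because the reads carry no molecular identifiers and calls of 1 read are not independent. With 1 library per state, any test below compares the libraries and not the states. Fisher's exact test treats calls as independent in the same way as these intervals, so its p-values also cover counting error only and are too small where calls share a read or a PCR product.

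Sparse tiles were mostly methylated, and the low tiles were the far lower tail of their distribution. In *Rex1*-high the fullest 5-point bin of sparse tiles was 60% to 65%, with 20363 tiles, and in *Rex1*-low it was 90% to 95%, with 29925 tiles. Below these bins the number of tiles dropped in every step, to 1937 tiles from 25% to 30% and 58 tiles from 0% to 5% in *Rex1*-high, and to 573 and 40 tiles in *Rex1*-low. No separate lower peak was seen among sparse tiles in either library. The limit of 30% was therefore drawn through a continuous slope. The 3 low tiles closest to it reached 29.99%, 29.98% and 29.96% in *Rex1*-low, while the 3 nearest sparse tiles above it had exactly 30.0% in 1 of the libraries.

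**Figure D1:**
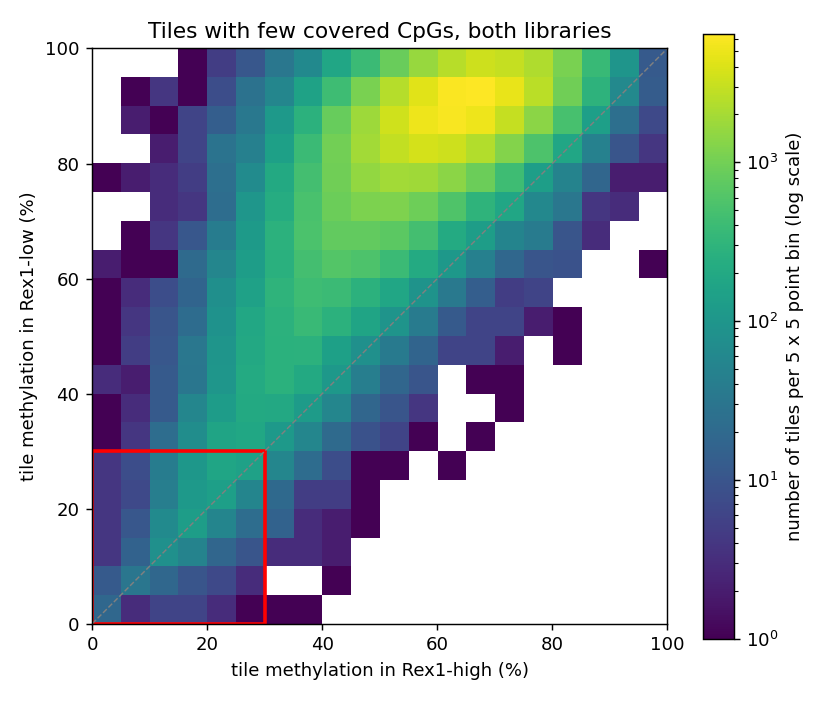
Methylation level of each of the 123738 sparse tiles in *Rex1*-high (x axis, %) and *Rex1*-low (y axis, %), counted in bins of 5 by 5 points with a logarithmic colour scale. The red square encloses the 1441 low tiles, the dashed line marks equal levels, and most sparse tiles lie above that line and far from the square.

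In *Rex1*-high, 4407 sparse tiles were under 30%, and 1441 of them, or 32.7%, were also under 30% in *Rex1*-low. The share depended on the level in *Rex1*-high. Of the tiles at 0% to 10%, 123 of 162 (75.9%) were low tiles, of those at 10% to 20%, 673 of 1053 (63.9%), and of those at 20% to 30%, 645 of 3192 (20.2%). In the other direction the sets were nearly nested: of 1595 sparse tiles under 30% in *Rex1*-low, 90.3% were also under 30% in *Rex1*-high. The 2966 sparse tiles that were under 30% in *Rex1*-high only are called departing tiles below. The 353 tiles that met every condition except that a neighbour had 40 or more shared CpGs are called flanking low tiles. Both sets are given beside the low tiles for comparison.

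Low tiles had a median level of 19.1% in *Rex1*-high, with quartiles of 14.7% and 23.2%. In *Rex1*-low the median was 21.8%, with quartiles of 16.3% and 26.1%. The difference, *Rex1*-low minus *Rex1*-high, had a median of 1.79 points within low tiles, quartiles of -1.20 and 5.43, and a range from -25.03 to 25.6. It was positive in 66.3% of low tiles and lay within 5 points of zero in 62.9% and within 10 points in 87.6%. For sparse tiles as a whole the median difference was 24.9 points. Only 65 low tiles were under 10% in both libraries, and 472 were under 20% in both.

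The low tiles were not spread thin within themselves. Neighbouring shared CpGs of low tiles lay a median of 13 bp apart, against 12 bp in flanking low tiles, 18 bp in departing tiles, 33 bp in sparse tiles and 15 bp over all autosomal tiles. The shared CpGs of a low tile spanned a median of 116 bp, and in 90.1% of low tiles they fell within 350 bp, compared with 88.7% of flanking low tiles, 83.3% of departing tiles and 69.6% of sparse tiles. Counting every CpG with a call in either library, low tiles listed a median of 12, flanking low and departing tiles 10, and sparse tiles 7. The share of low tiles rose with the number of shared CpGs, from 130 of 43411 sparse tiles with 3 (0.299%) to 208 of 4848 with 9 (4.29%). The name CpG-poor thus describes the number of CpGs covered in the 2500 bp, while the covered stretches were short and their CpGs close together.

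At single CpGs, low tiles were a mixture of unmethylated or little methylated positions and fewer intermediate or methylated ones, rather than CpGs at a uniform low level. Of the 8806 shared CpGs, 44.8% had no methylated call in *Rex1*-high and 35.7% had none in *Rex1*-low. Under 20% were 69.3% and 67.4% of them, and 63.7% were under 20% in both libraries. At 80% or over were 2.70% in *Rex1*-high and 5.19% in *Rex1*-low, and 132 CpGs were so in both. Flanking low tiles held a like mixture, with 70.8% and 70.5% of CpGs under 20% and 67.8% so in both. In departing tiles 57.8% of CpGs were under 20% in *Rex1*-high and 22.8% in *Rex1*-low, and in sparse tiles 9.13% and 3.61%. From under 20% in *Rex1*-high to 80% or over in *Rex1*-low went 8 CpGs of low tiles (0.0908%), and 11 CpGs (0.125%) went the other way, against 0.669% and 0.0294% over all autosomal tiles. The limit on the tile level bounds such changes in low tiles, so nothing is read from these counts. The order of CpGs within a tile was shared by the libraries, since deviations of CpGs from their tile's level correlated at r = 0.844 over the 8806 CpGs (a description across CpGs that share fragments), compared with 0.868 in flanking low tiles, 0.749 in departing tiles, 0.586 in sparse tiles and 0.771 over all autosomal tiles.

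Many of the intermediate values belonged to CpGs whose deposited lines differed. A CpG can have up to 2 deposited lines, with no strand named, and in some CpGs 1 line was at 80% or over while the other was at 20% or under. Among CpGs of low tiles with 2 kept lines, the lines disagreed in this way at 1617 of 6745 (24.0%) in *Rex1*-high and at 1253 of 5676 (22.1%) in *Rex1*-low. In sparse tiles the shares were 7.77% and 3.79%, and in departing tiles 24.5% and 13.2%. In flanking low tiles they were 20.03% and 18.4%, and over all autosomal tiles 9.28% and 7.21%. The position of these CpGs was uneven: in low tiles 88.1% of them in *Rex1*-high and 86.8% in *Rex1*-low were the first or last shared CpG of the tile, whereas 32.7% of all shared CpGs held such a place. The other groups had this pattern too, with 82.0% and 81.6% in flanking low tiles, 83.6% and 77.0% in departing tiles and 74.8% and 69.9% in sparse tiles. Of all shared CpGs in these groups, 32.7%, 37.4% and 43.1% held such a place, so the excess was smaller in sparse tiles. Over all autosomal tiles the values were 42.2% and 29.9%, against 21.1% of all shared CpGs. CpGs with disagreeing lines recurred in both libraries. In low tiles, 1014 of the 1184 (85.6%) that disagreed in *Rex1*-high and had 2 kept lines in both libraries also disagreed in *Rex1*-low. The share was 81.3% in flanking low tiles, 49.9% in departing tiles, 35.2% in sparse tiles and 64.4% over all autosomal tiles. Since the fraction of a CpG is the mean of its kept lines, such CpGs take values near the middle of the scale by definition. The upper and lower lines had a median of 14 calls each in *Rex1*-high, and of 20 and 10 calls in *Rex1*-low. The labels state that the ends of the fragments were filled in during library preparation, which adds cytosines that do not carry the methylation of the cell. Whether the lines are strands, and how far filled-in cytosines enter the values of these CpGs and the tile levels built on them, was not tested.

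**Figure D2:**
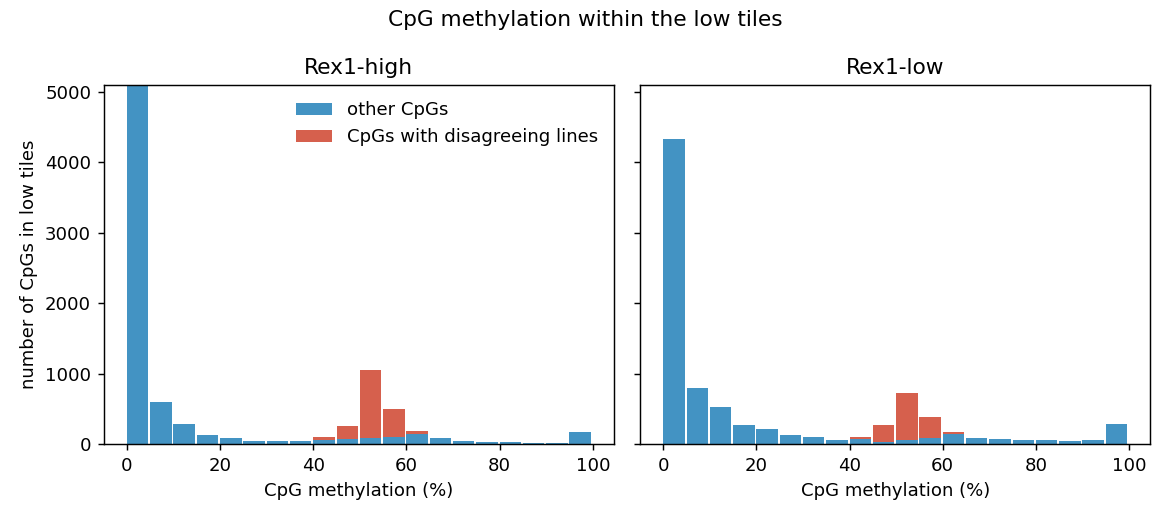
Number of shared CpGs of low tiles (y axis) by methylation in 5-point bins (x axis, %), in *Rex1*-high and *Rex1*-low. Red marks CpGs whose lines disagreed, 1617 in *Rex1*-high and 1253 in *Rex1*-low, which lie near 50% by definition, and blue marks all others, most of which are near 0%.

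These CpGs carried much of the level of a low tile. They accounted for 51.8% of the summed methylation of the shared CpGs in *Rex1*-high and 35.8% in *Rex1*-low, against 5.73% and 1.01% in sparse tiles. Over all autosomal tiles such CpGs accounted for 11.1% and 4.55%. The trait was shared with similar tiles, since the values were 48.9% and 35.5% in flanking low tiles and 37.9% and 7.14% in departing tiles. Without them the median CpG of low tiles was at 0% in *Rex1*-high and at 2.78% in *Rex1*-low, and the means were 11.0% and 15.4%. Low tiles can be ordered by the number of such CpGs in either library. The 272 low tiles with none had median levels of 16.7% and 21.4% in *Rex1*-high and *Rex1*-low. The 567 with 1 had medians of 9.38% and 12.7% over their other CpGs. In the 530 with 2, the medians over the other CpGs dropped to 1.79% and 4.21%, and in the 72 with 3 or more to 1.53% and 3.63%. With a limit of 30% on the tile level and at most 9 CpGs, the other CpGs of a tile must be lower the more such CpGs it holds, so this order is largely fixed by the choice of tiles. Of 1293 low tiles with at least 3 other CpGs, 729 (56.4%) were under 10% over these in *Rex1*-high and 566 (43.8%) in *Rex1*-low.

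Individual tiles show the mixture at single CpGs, but not the part of CpGs with disagreeing lines, because tiles with such CpGs were left out. Only 272 of the 1441 low tiles (18.9%) had none. The individual tiles were taken from 24 low tiles outside chromosome 18. These had at least 5 shared CpGs, at least 100 calls in each library, no CpG with disagreeing lines and at least 10 calls in each library at CpGs not used for the choice. Percentages of single CpGs are means over their lines, and calls are summed over the lines. The lowest was chr4:145425001-145427500, where 9 shared CpGs lay within 46 bp. Its level was 1.42% in *Rex1*-high, from 10 methylated of 716 calls, and 3.12% in *Rex1*-low, from 13 of 447 calls. Every one of the 9 CpGs was low in both libraries, with a highest value of 4.23% in *Rex1*-high and of 9.76% in *Rex1*-low. Its CpGs that were not used for the choice were higher, at 14.6% (82 of 562 calls) and 19.5% (156 of 800 calls), and those with calls in both libraries at 37.5% (3 of 8 calls) and 26.1% (139 of 532 calls). The tile at chr11:86922501-86925000, also with 9 CpGs, had levels of 7.66% and 9.72%. Of its methylated calls, 26 of 28 in *Rex1*-high and 18 of 21 in *Rex1*-low were at 1 CpG, which was at 52.2% and 53.0%. The tile at chr3:87862501-87865000 had levels of 7.82% and 11.6%, which rested on 1 of its 6 CpGs. Its first 5 CpGs, over 27 bp, were at or below 2.63% in both libraries, and its last, 43 bp from the first, was at 44.6% in *Rex1*-high and 67.1% in *Rex1*-low. By summed calls this last CpG had 18 of 56 and 25 of 43 methylated.

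The tiles with the highest levels held the same mixture with more methylated CpGs. At chr9:54132501-54135000 the level was 25.7% in *Rex1*-high and 29.1% in *Rex1*-low. There 6 of the 9 CpGs were under 20% in both libraries. The remaining 3 CpGs, which lay 49, 114 and 233 bp from the first, had 67.9%, 58.8% and 91.4% in *Rex1*-high and 53.8%, 83.9% and 82.2% in *Rex1*-low. The level of this tile was thus set mostly by 3 methylated positions. The other 6 CpGs were low but not all unmethylated, with values up to 6.67% in *Rex1*-high and 14.6% in *Rex1*-low. The other 2 of the highest tiles were chr4:96220001-96222500, at 24.1% and 28.1%, and chr1:34540001-34542500, at 23.0% and 28.1%.

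The largest rise among these 24 tiles was at chr17:48632501-48635000, from 16.2% in *Rex1*-high to 29.6% in *Rex1*-low. It came from 3 of 5 CpGs: the first went from 16.3% to 36.1% (by summed calls, 3 of 21 and 15 of 38), the next from 10.1% to 28.9%, and the third from 54.6% to 83.05%, while the last 2 had no methylated call in either library. The next largest rises were 10.9 points at chr1:137050001-137052500 and 10.5 points at chr8:42100001-42102500. The largest fall was at chr8:72355001-72357500, from 24.0% to 19.3%. It rested on the first CpG, at 65.9% in *Rex1*-high and 30% in *Rex1*-low, although by summed calls it had 12 of 27 and 3 of 10 methylated, and the last CpG of the tile was methylated in both, in 23 of 23 calls and 43 of 44 calls. The other falls were -4.05 points at chr5:121902501-121905000 and -1.35 points at chr12:24780001-24782500. In the chromosome 12 tile, 7 CpGs within 31 bp were at or below 10.0% in both libraries. The eighth, 9 bp farther on at 40 bp from the first, was methylated in all 17 calls of *Rex1*-high and all 25 of *Rex1*-low.

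**Figure D3:**
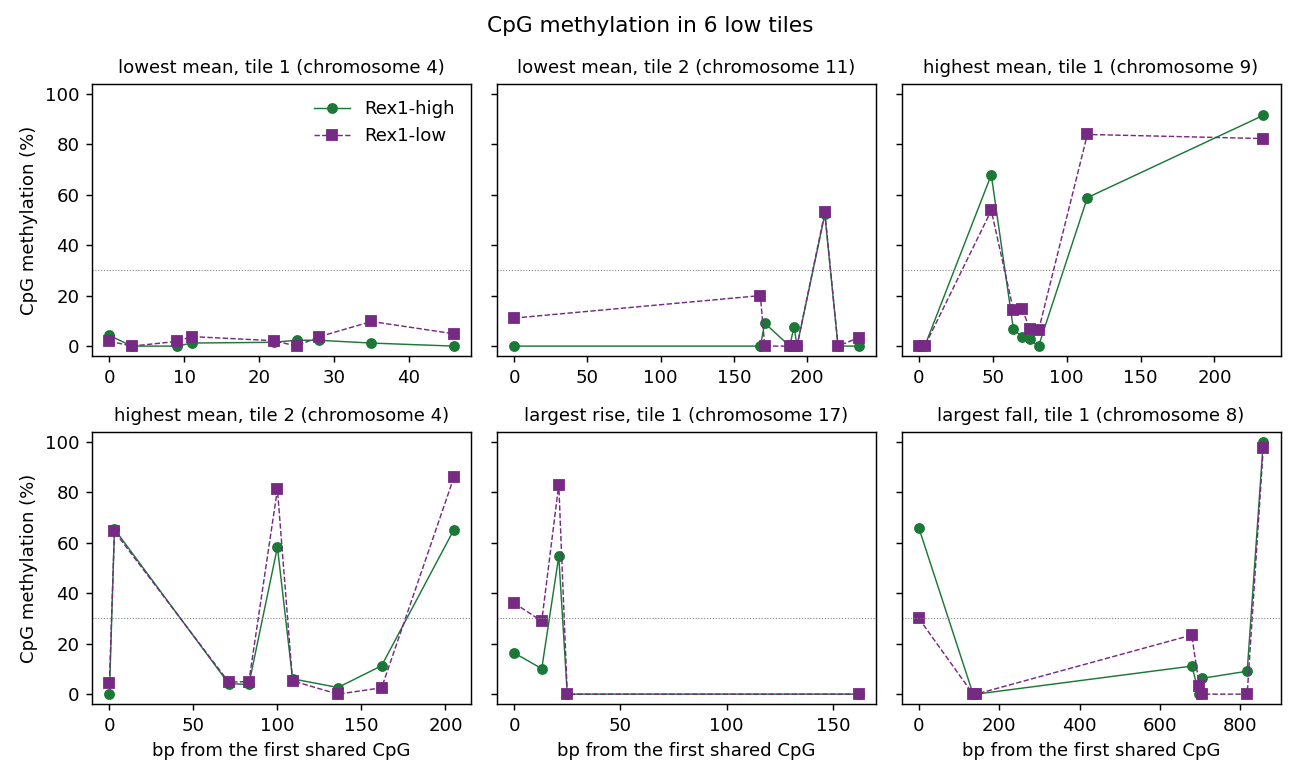
Methylation of each shared CpG (y axis, %) against its distance from the first shared CpG (x axis, bp) in 6 of the low tiles named in the text, with circles for *Rex1*-high and squares for *Rex1*-low and a dotted line at 30%. Each point is 1 CpG in 1 library, and in most of these tiles CpGs near 0% stand beside single CpGs above 50% in both libraries.

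CpGs that were not shared, because a line with 5 calls was missing in at least 1 library, did not enter the choice of tiles. Their values were not used by the rule, but they lie in the same tiles, can share reads and fragments with the shared CpGs, and have low depth. Calls at these held-out CpGs were summed per tile, and tiles with at least 10 held-out calls in each library were tested for a difference with Fisher's exact test (two-sided), with Benjamini-Hochberg adjustment over all tiles tested. Of the low tiles, 420 (29.1%) could be tested. Their held-out CpGs had a median methylation of 26.5% in *Rex1*-high, with quartiles of 14.3% and 42.4%, and of 26.0% in *Rex1*-low, with quartiles of 12.9% and 49.2%. The corresponding medians of the other sparse tiles, 21064 in all, were 55.9% and 82.6%, and those of 686 departing tiles were 36.9% and 52.1%. In the low tiles, 184 of the 420 (43.8%) had held-out CpGs under 30% in both libraries, against 23.4% of all autosomal tiles tested. Flanking low tiles had medians of 27.5% and 25.3%, and 42.6% of them were under 30% in both. When CpGs with disagreeing lines were left out of the choice, which gave 2908 low tiles and placed those CpGs among the held-out ones, the held-out medians were 51.02% and 60.4%, and 24.2% of low tiles, against 34.1% of all tiles, were called more methylated in *Rex1*-low by the test described next.

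The change between libraries at held-out CpGs had a median of 1.07 points in low tiles, -0.54 points in 94 flanking low tiles, 13.1 points in departing tiles and 24.0 points in the other sparse tiles. Summed over the 420 low tiles, where deep tiles weigh more, held-out calls were 11.2% methylated in *Rex1*-high and 24.3% in *Rex1*-low. Low tiles were called more methylated in *Rex1*-low in 26 of 420 cases (6.19%) and less methylated in 25 (5.95%), where a call required an adjusted p below 0.05 and a difference of 10 points or more. Over all 40223 tiles tested, 19.3% were called more and 2.77% less methylated. Among other sparse tiles 25.5% were called more and 0.494% less methylated, and among flanking low tiles 2.13% and 9.57%. Calls were also thinned at each held-out CpG to the depth of the library with fewer calls there, which removed CpGs without calls in both libraries. After this, 295 low tiles could be tested and none was called in either direction, while 3.01% of all tiles were called more methylated. The thinning thus changed both the depth and the CpGs compared.

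Held-out CpGs often had calls in 1 library only, so that different CpGs were then set against each other. Restricting the held-out CpGs to those with calls in both libraries, a restriction added after the first result was seen, left 319 low tiles. Of these, 16 (5.02%) were called more methylated in *Rex1*-low and 5 (1.57%) less methylated, against 16.4% and 1.22% of all 32822 tiles tested in this way. The median methylation was 23.1% in *Rex1*-high and 26.1% in *Rex1*-low, and the median change was 1.95 points. For departing tiles the median change was 14.0 points and 15.1% were called more methylated. For other sparse tiles the values were 24.0 points and 21.9%. Of 75 flanking low tiles none was called more methylated and 3 were called less, with a median change of 1.81 points. The share of low tiles called more methylated was thus below that of all tiles with either set of CpGs, while the excess of falls was smaller when the same CpGs were compared. A Cochran-Mantel-Haenszel test with CpGs as strata gives weight only to CpGs with calls in both libraries. Applied to the tiles with enough calls over the full set of held-out CpGs, it could be run for 410 low tiles. It called 4 of them more methylated and none less, and 5.74% of all tiles more methylated. Held-out calls were few, with medians of 26 and 29 per low tile in *Rex1*-high and *Rex1*-low for CpGs with calls in both. A tile that was not called can therefore not be read as unchanged, and the change detectable at this depth was not tested.

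The named tiles illustrate both points. In the chr3:87862501-87865000 tile, held-out CpGs went from 50% (71 of 142 calls) in *Rex1*-high to 6.98% (3 of 43 calls) in *Rex1*-low, for which Fisher's exact test gave an adjusted p of 7.66e-06. Only 3 held-out CpGs of that tile had calls in both libraries, and these had no methylated call in 23 and 40 calls. In chr12:24780001-24782500 the held-out CpGs went from 6.02% to 24.1%, with an adjusted p of 1.72e-06 in the same exact test. Over the 11 of its 45 held-out CpGs with calls in both libraries they were at 13.0% (3 of 23 calls) and 24.3% (37 of 152 calls). In chr1:34540001-34542500 all 5 held-out CpGs had calls in both libraries and went from 34.3% (12 of 35 calls) to 82.6% (19 of 23 calls), with an adjusted p of 0.0048 in the exact test. This tile was thus low at its 6 shared CpGs and had held-out CpGs that were more methylated in *Rex1*-low. The tile on chromosome 17 with the largest rise among the 24 had held-out CpGs at 45% (9 of 20 calls) and 18.2% (2 of 11 calls), of which 2 CpGs had calls in both libraries, with an adjusted p of 0.425 in the exact test.

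**Figure D4:**
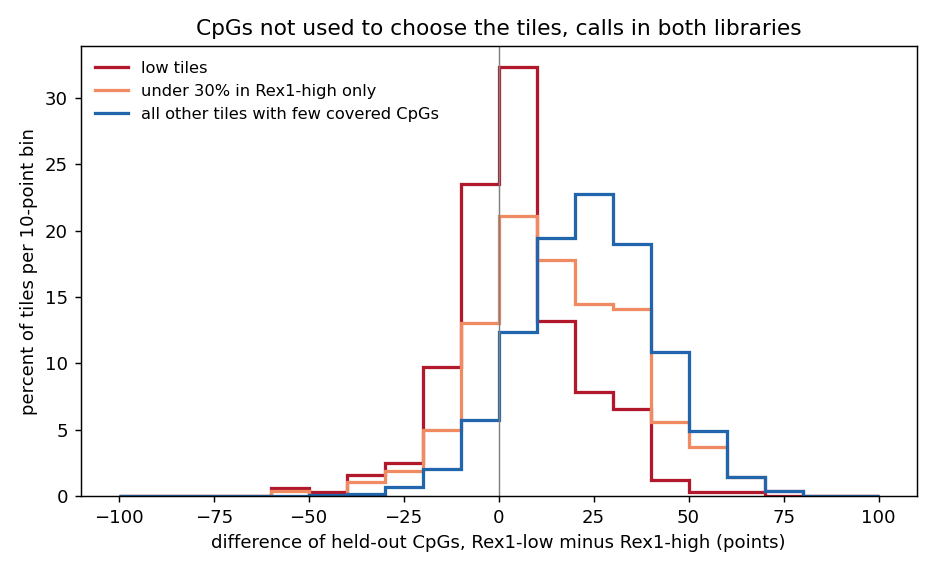
Percent of tiles (y axis) by the difference in methylation of held-out CpGs with calls in both libraries, *Rex1*-low minus *Rex1*-high (x axis, points, bins of 10), for 319 low tiles, 483 departing tiles (under 30% in *Rex1*-high only) and 16405 other sparse tiles, which include the departing ones. The low tiles centre near zero, with a median of 1.95 points, and the other sparse tiles at 24.0 points.

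The levels of the tiles directly beside low tiles were also compared, although the choice bore on which neighbours could be present: none had 40 or more shared CpGs, and those with 3 to 9 that were low in both libraries were mostly low tiles themselves. There were 1072 such tiles with at least 3 shared CpGs that were not low tiles themselves, with median levels of 36.8% in *Rex1*-high and 51.9% in *Rex1*-low. Of them, 534 (49.8%) were called more methylated in *Rex1*-low, and 2 were called less methylated. A tile was called here if Fisher's exact test on the summed calls of shared CpGs gave an adjusted p below 0.05. In addition its level, the unweighted mean, had to differ by 10 points or more. Over all 162599 tiles 75.5% were called more and 0.0326% less methylated, but these include tiles that could not be neighbours here, so the comparison was made by the number of shared CpGs. Among 567 neighbours with 3 to 9 shared CpGs, 72.5% were called more methylated, with medians of 53.0% and 79.4%, compared with 82.7% of all autosomal tiles of that size. Because low tiles are missing from it, this class is not comparable with all tiles of its size. Among 247 neighbours with 10 to 19 shared CpGs, 38.5% were called, with medians of 23.8% and 29.7%, whereas 76.7% of all autosomal tiles of that size were called and their medians were 47.6% and 76.4%. Among 258 neighbours with 20 to 39 shared CpGs, 10.9% were called, against 24.6% of all autosomal tiles of that size, and the medians of 15.6% and 17.8% were close to the 17.7% and 21.4% of such tiles in general.

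The dip in methylation around low tiles was narrow in the medians. Tiles 2.5 kb to the left of low tiles had medians of 34.7% in *Rex1*-high and 50.03% in *Rex1*-low, and those 2.5 kb to the right 32.9% and 46.2%. These medians include low tiles next to other low tiles and the neighbours with 20 to 39 shared CpGs, which are more frequent here than around sparse tiles. At 5 kb the medians were 51.2% and 77.1% on the left and 51.7% and 79.5% on the right, and they changed little out to 25 kb. Around sparse tiles in general they lay between 56.7% and 58.1% in *Rex1*-high and between 84.2% and 85.4% in *Rex1*-low over the same distances. A low tile had no shared CpG in either neighbour in 336 cases (23.3%), against 36.2% of sparse tiles, and had a neighbour with 20 to 39 shared CpGs in 252 cases (17.5%), against 2.91% of sparse tiles. The nearest tile with 40 or more shared CpGs was a median of 72.5 kb away for low tiles, 70.0 kb for departing tiles and 95 kb for sparse tiles.

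**Figure D5:**
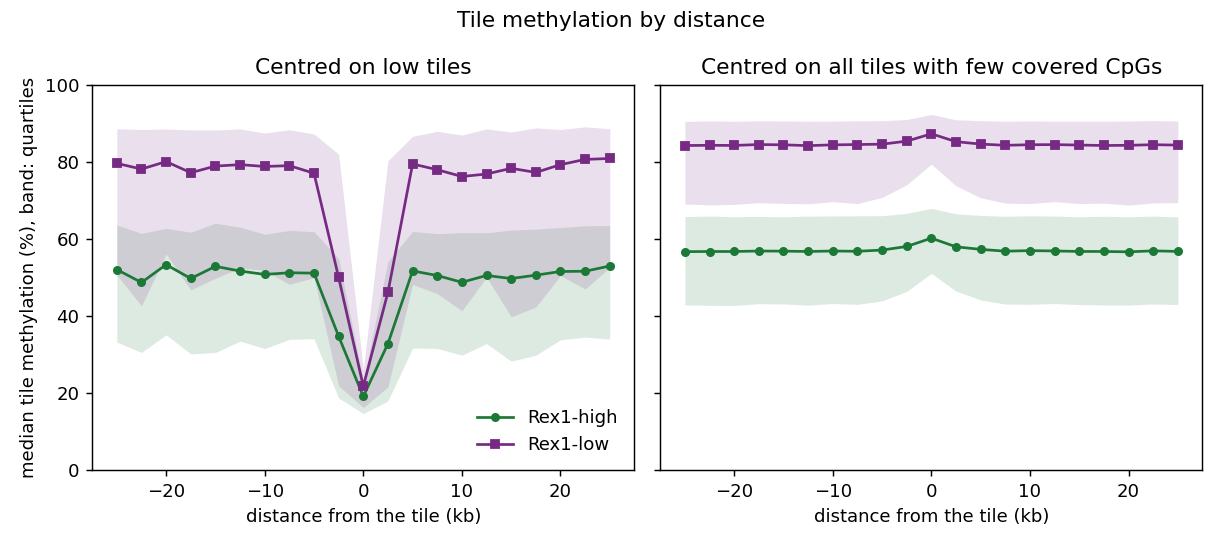
Median tile methylation (y axis, %, bands for the quartiles) in *Rex1*-high and *Rex1*-low by distance from low tiles (left) and from all sparse tiles (right), in steps of 2.5 kb to 25 kb. The values at distance zero around low tiles were fixed by the choice of tiles, those at 2.5 kb include adjacent low tiles, and beyond 5 kb the medians are flat, somewhat below those around sparse tiles.

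Low tiles seldom lay side by side. Another low tile was directly adjacent for 67 of the 1441 (4.65%). Where the tile beside a low tile was sparse, it was a low tile in 68 of 624 cases (10.9%), compared with 624 of 55628 (1.12%) beside sparse tiles in general. A tile border can fall between shared CpGs that lie close together, as between 125942471 and 125942702 on chromosome 1. Adjacent low tiles are therefore not always separate regions. There were 32 runs of 2 low tiles and 1 run of 3, at chr2:3247501-3255000. In that run the levels were 23.1%, 17.3% and 27.9% in *Rex1*-high and 21.3%, 27.4% and 25.7% in *Rex1*-low. Each of its tiles had CpGs between 44.8% and 61.5% at both ends of the covered stretch in *Rex1*-high, and CpGs at or below 7.14% between them. At 5 of these 6 end CpGs the lines disagreed in *Rex1*-high, so that their values are averages of a line at 80% or over and a line at 20% or under. Among its inner CpGs the highest value in *Rex1*-low was 20.5%. Of the runs of 2, which tie in length, the first 2 in order of chromosome and position were at chr1:125940001-125945000, with levels of 12.6% and 17.98% in *Rex1*-high and 15.0% and 22.0% in *Rex1*-low, and at chr1:135387501-135392500, with 28.4% and 25% in *Rex1*-high and 29.8% and 24.4% in *Rex1*-low.

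Low tiles were found on every autosome, from 0.817% of the sparse tiles of chromosome 19 (29 of 3548) to 1.53% of those of chromosome 17 (83 of 5413). Their median level on single chromosomes ranged from 17.2% to 20.9% in *Rex1*-high and from 20.4% to 24.4% in *Rex1*-low. On chromosome X, which the choice left out, 78 of 3184 tiles met the same conditions.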

How the data were processed

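RRBS libraries of *Rex1*-high and *Rex1*-low ESCs, 1 each, were analysed. MspI and TaqI fragments were prepared and sequenced for the authors by Zymo Research. The authors processed reads with Bismark and Galaxy and used CpGs with at least 5 reads. The submitters' processing notes name Bismark 0.7 and mm9. Each deposited line gives methylated calls over all calls, and the authors' score, 1000 times that ratio, was not used. The handling of strands and trimming is not given in the sources used here. The minimum of 5 calls was applied here to each line, and fractions were averaged per CpG and then per 2500 bp tile. Individual tiles were, among those with the stated depth and no disagreeing lines, the 3 lowest, the 3 highest, the 3 largest rises and the 3 largest falls. The 3 longest runs, with ties taken in order of chromosome and position, and the 3 tiles on either side of 30% were taken without these conditions. Members, groups and tests were chosen with earlier results of these data known. Tiles were compared by two-sided Fisher's exact tests with Benjamini-Hochberg adjustment over all tiles, which were tested on simulated data. Alternatives varied the call minimum, line handling, tile offset, limits, tests and depth. Calculations used SciPy 1.17.1, pandas 2.3.3 and NumPy 2.4.6 under Python 3.11.15, and plots matplotlib 3.10.9.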

Additional observations from a re-analysis of the deposited data

How the results depend on the processing

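Of 91 recomputed values, 65 stayed close to the reported value and 26 did not. The number of tiles and the percentages called were held to 1.5 times, held-out medians to the median Wilson half-width per tile (14.3 and 13.8 points), and other shares to their exact interval, which is narrow. The identity of the low tiles was less stable than their number: with at least 10 calls per line there were 1462, of which 775 were among the 1441. Leaving out CpGs with disagreeing lines gave 2908 low tiles, 1288 of them among the 1441. The share staying under 30% was then 42.8%, adjacency 6.74%, held-out medians 51.0% and 60.4%, and held-out rises 24.2% (34.1% of all tiles). By construction these dropped CpGs then count as held out. A limit of 20% gave 472 low tiles, a staying share of 38.8%, adjacency of 1.27% and disagreement at 20.04% and 18.8% of CpGs. Summing lines first gave 31.002% staying and 3.18% adjacent, levels from summed calls 30.7% staying, the neighbour limit of 20 shared CpGs 30.3% staying, and shifted tiles 3.60% adjacent. With 5 to 9 shared CpGs the staying share was 38.0% and disagreement 22.9% and 20.9%. At least 10 calls per line gave disagreement of 18.3% and 15.5% and held-out rises of 9.70% (37.8% of all tiles), and at least 3 calls gave disagreement of 25.1% in *Rex1*-high. Held-out rises were 11.3% with at least 20 calls (25.4% of all tiles), 0.976% with a Cochran-Mantel-Haenszel test by CpG (5.74%) and 0.0% after thinning to equal depth at each CpG (3.01%). That test and the thinning used only held-out CpGs with calls in both libraries. Except where named as its construction, the cause was not tested. The share of neighbours more methylated in *Rex1*-low ranged from 39.9% to 60.6% and was not recomputed by number of shared CpGs. No paired analysis was possible because each state has 1 library.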

Other observations

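The 420 low tiles with enough held-out calls had 1 tile of extreme depth, chr16:57390001-57392500, with 54158 held-out calls in *Rex1*-high and 12673 in *Rex1*-low. Its held-out CpGs were at 9.27% and 26.1%. Pooled over the other 419 tiles, the held-out calls were 12.7% methylated in *Rex1*-high and 23.4% in *Rex1*-low, while the median tile was at 26.5% and 26.0%. The cause of the gap between pooled values and medians was not tested.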
